A study of Mus musculus with 5 samples.

Results

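Prx1-derived GFP+ cells of injured hindlimb muscle were compared between 2 single-cell libraries, SC_9 and SC4, read here as d5 and d3 post-fracture. Cells with 350 to 8000 detected genes, under 20% of their unique molecular identifiers (UMIs) on mitochondrial genes and at least 1000 UMIs were taken, which gave 1468 cells of SC_9 and 5589 of SC4, 7057 of the 29831 cells that pass these limits in the 5 libraries of the series. The reading of SC_9 as d5 post-fracture goes against its deposited label, which says d3 post-polytrauma. SC_9 holds 2001 barcodes. That count equals the cell number in the study's source data for the later time post-fracture, whereas the library labelled d5 post-fracture, SC5, holds 6915. If the label is right, the comparison below is one of polytrauma with fracture at d3 and not one of times. If SC_9 is d5 post-fracture and the labels of SC3, SC4 and SC10 hold, SC5 would be the library of d3 post-polytrauma. Values of SC5, of SC3 (d0, uninjured) and of SC10 (labelled d5 post-polytrauma) are therefore given beside those of the pair.

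All libraries came from adult Prx1Cre;mTmG mice on a C57Bl/6 background, in which descendants of limb bud mesenchyme express GFP and other cells express Tomato, since Prx1-Cre is active in that mesenchyme. The fracture was made in the tibia and left without fixation, and in polytrauma the neighbouring muscles were also injured mechanically. Muscle around the tibia was digested and GFP+ cells were sorted. Each library pooled cells of 2 mice and each condition has 1 library, so there was no replicate, no test was possible and no p-value is given. Every 95% interval below covers counting error only.

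SC_9 was deeper than SC4, with a median of 34949 UMIs per retained cell against 17963. Barcodes with at least 20% mitochondrial UMIs made up 10.6% of SC_9 and 0.947% of SC4. SC_9 shared 0 cell barcodes with SC3, SC4 or SC5 and 944 (47.2%) with SC10, while SC4 shared 508 with SC5 and 405 with SC3. The barcodes common to SC_9 and SC10 held a median of 42228 UMIs in SC_9 and 870 in SC10, and 338 of them were retained in SC10. Whether SC10 holds reads of SC_9 in them was not tested, and levels without them are given below for cartilage genes. SC_9 and SC10 thus carry other barcodes than the other 3 libraries, and what goes with that difference in barcodes cannot be told apart from the difference between SC_9 and SC4. On the CPM scale (counts per 1000000 UMIs of the library) the median gene was 1.59 times higher in SC_9 than in SC4. All levels below are therefore CPM divided by a factor that brings the median compared gene to its value in SC4, called the level.

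A fractured long bone heals largely through cartilage. Mesenchymal progenitors gather at the fracture, and those that turn on the transcription factor Sox9, with its partners Sox5 and Sox6, become chondrocytes that secrete type II, IX and XI collagens, aggrecan and link protein. The cartilage is later calcified and replaced by bone under the control of Runx2 and Sp7. Before this the injured tissue is inflamed, and mesenchymal cells release chemokines such as Ccl2 and Cxcl1 that bring in monocytes and neutrophils, and transcription of many of these genes is driven by NF-kB and AP-1. Fibrous matrix rich in type I and type III collagen is laid down at the same time.

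The chemokine genes at least 2-fold lower in SC_9 than in SC4 include Cxcl3, Cxcl1 and Cxcl2, CXC genes on chromosome 5 whose starts carry the same motif. Ccl20 and Ccl2 had lower ratios than Cxcl1 and are not among the genes found with this motif. Neither is Cxcl5, a CXC gene that was also lower in SC_9. Ccl2 has no promoter in the set searched. The 250 bases before the start of Cxcl3, Cxcl1 and Cxcl2 are shown because each holds GGANTTTCC, the core of a form of the NF-kB motif, and those before one of the starts of the cytokine gene Il11 because they hold TGAGTCA, the AP-1 motif. Sequences are RefSeq's for GRCm38.p6, written 5′ to 3′ on the strand of the gene with the motif in capitals. Cxcl3 lies at chr5:90785851-90786100 (+), Cxcl1 at chr5:90890995-90891244 (+), Cxcl2 at chr5:90903649-90903898 (+) and Il11 at chr7:4778142-4778391 (-).
Cxcl3: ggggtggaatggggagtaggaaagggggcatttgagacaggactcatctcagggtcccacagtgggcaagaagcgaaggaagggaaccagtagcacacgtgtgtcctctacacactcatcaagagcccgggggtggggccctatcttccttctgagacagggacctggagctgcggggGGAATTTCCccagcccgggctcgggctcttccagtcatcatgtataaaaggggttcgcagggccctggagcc
Cxcl1: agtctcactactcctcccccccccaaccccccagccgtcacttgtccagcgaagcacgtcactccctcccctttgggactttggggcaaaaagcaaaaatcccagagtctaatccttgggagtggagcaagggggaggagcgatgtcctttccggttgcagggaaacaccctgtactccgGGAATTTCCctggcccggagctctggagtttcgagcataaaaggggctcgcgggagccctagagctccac
Cxcl2: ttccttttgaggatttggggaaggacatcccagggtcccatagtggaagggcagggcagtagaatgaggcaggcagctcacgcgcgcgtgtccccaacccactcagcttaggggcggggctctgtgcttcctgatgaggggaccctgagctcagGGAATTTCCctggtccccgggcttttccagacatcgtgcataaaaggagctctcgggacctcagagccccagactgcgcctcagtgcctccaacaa
Il11: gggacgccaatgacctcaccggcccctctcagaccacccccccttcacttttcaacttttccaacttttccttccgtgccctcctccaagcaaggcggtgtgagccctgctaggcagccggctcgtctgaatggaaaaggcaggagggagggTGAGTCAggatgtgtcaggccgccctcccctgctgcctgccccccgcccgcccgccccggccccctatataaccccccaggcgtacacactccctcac

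Searched on both strands, GGANTTTCC was found in 4 of the 15 chemokine genes with a promoter in the table, which were these 3 and Cxcl10, and in 1.25% of all 27025 genes there. It began 72 bases before the start in Cxcl3, 70 in Cxcl1 and 96 in Cxcl2. TGAGTCA was found in 4 of 18 genes of the IL-6 and IL-1 families (Il6, Lif, Il11 and Il1rn) and in 5.16% of all genes. ACAATG, a SOX motif, was found in 1 of 19 cartilage matrix genes, Epyc, and in 12.2% of all genes. Such matches describe these letters only, and Cxcl10, which holds both GGANTTTCC and TGAGTCA, was level in the pair, at 110.2 in SC4 and 115 in SC_9.

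Of 12179 genes with a mean of at least 1 CPM in the pair, 2114 (17.4%) were at least 2-fold higher in SC_9 and 2151 (17.7%) at least 2-fold lower, 35.0% in either direction. These shares are the background for the counts of members below, unless another setting or library is named. Without the levelling of the median gene the split of the 12179 genes was 4620 higher and 517 lower. Levelled within bins of transcript length it was 2055 higher and 1357 lower. These splits are the background for counts under those settings. Among the fewer genes with a mean of at least 10 CPM, 1235 were higher and 1159 lower. With barcodes of another library left out the split was 2366 higher and 2346 lower. It was 2038 and 2144 with every cell weighted equally, and 2122 and 2243 with dividing cells left out. Each of these settings compares another set of genes than the 12179, so no share is given for them. With SC5 in place of SC_9, 293 genes were higher and 186 lower. Among named genes with a mean of at least 20 CPM, the 15 highest ratios of SC_9 to SC4 belonged to 10 cartilage matrix genes (Col2a1, Hapln1, Col9a3, Ucma, Cnmd, Col11a2, Col9a1, Matn4, Col9a2 and Matn3), the cartilage gene Scrg1, the bone gene Ibsp, and Hist1h2ap, Scand1 and Dapk3. Levels of the last 3 went with the barcodes of the libraries. Scand1 lay at 0.3302 in SC4, 102 in SC_9, 0.766 in SC3, 0.416 in SC5 and 144 in SC10. Dapk3, a death-associated kinase, lay at 0.3202 in SC4, 25.7 in SC_9, 0.225 in SC3, 0.841 in SC5 and 29.7 in SC10. Hist1h2ap, a histone gene with near-identical copies to which reads can be assigned differently, lay at 0.01001 in SC4, 136 in SC_9, 0 in SC3, 0.911 in SC5 and 70.2 in SC10. All 3 were high in SC_9 and SC10 and near 0 in the other libraries. Among the 15 lowest ratios were those of the chemokines Cxcl3, Ccl20, Ccl2 and Cxcl2, the cytokine gene Il11, the receptor gene Il1rl1, the heat shock genes Hspa1a and Hspa1b, and Mt2, Ass1, Fosl1, Nme2, Lmcd1 and Tubb6.

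**Figure D1:**
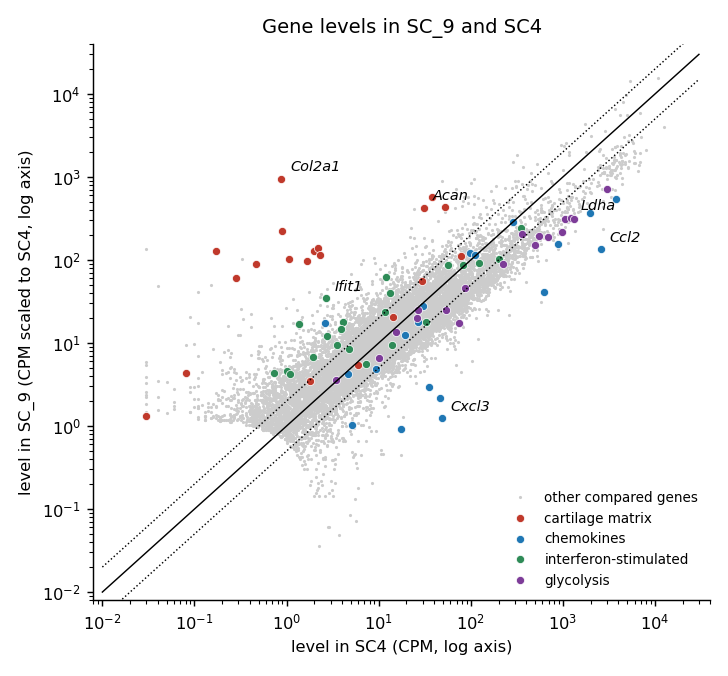
Level of each of the 12179 compared genes in SC4 (x axis, CPM, log scale) and SC_9 (y axis, CPM scaled to SC4, log scale), with 4 gene lists in colour; the solid line marks equal levels and the dotted lines a 2-fold difference. Col2a1 lies at 957 in SC_9 against 0.870 in SC4, and Ccl2 at 135 against 2561.

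Cell type markers aside, the cartilage matrix genes were the list with the highest median ratio. Of 20 members compared, 15 were at least 2-fold higher in SC_9 and 0 were lower, against 17.4% and 17.7% of all genes, and their median ratio was 5.804 on the log2 scale, where the median gene is 0. The level of Col2a1, which encodes type II collagen (ENSMUSG00000022483, chromosome 15 from 97975602 to 98004695; GRCm38 coordinates throughout), was 0.8705 in SC4, 957 in SC_9, 6.13 in SC3, 0.109 in SC5 and 54.9 in SC10. SC_9 stood above the other 4 libraries and the ratio to SC4 was 1099 (95% interval 891 to 1372), resting on 87 UMIs in SC4 and 79075 in SC_9. Whether more cells make a transcript or each cell makes more of it cannot be told apart in such sums, and counts of cells follow below. Hapln1 (ENSMUSG00000021613, chromosome 13 from 89539796 to 89611652), the link protein that ties aggrecan to hyaluronan, lay at 0.1701 in SC4, 128 in SC_9, 0.586 in SC3, 0.0198 in SC5 and 10.1 in SC10, a 755-fold difference within the pair (471 to 1297).

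The large proteoglycan aggrecan and the collagens that join type II fibrils were higher in SC_9 as well. Acan (ENSMUSG00000030607, chromosome 7 from 79053483 to 79115099) was present in both libraries of the pair, with levels of 30.8 in SC4, 427 in SC_9, 3.15 in SC3, 4.96 in SC5 and 57.2 in SC10, and was 13.9-fold higher in SC_9 than in SC4 (13.4 to 14.4). Col11a1 lay at 37.9 in SC4, 573 in SC_9, 40.5 in SC3, 14.2 in SC5 and 126 in SC10, with SC_9 above every other library. Of the 3 chains of type IX collagen, Col9a1 lay at 1.99 in SC4 and 129 in SC_9, Col9a2 at 1.68 in SC4 and 97.3 in SC_9 and Col9a3 at 0.901 in SC4 and 224 in SC_9. In SC10 the 3 chains lay at 8.05, 9.004 and 13.2, between the libraries of the pair. With the barcodes of SC_9 left out of SC10, an alternative added after seeing the data, they lay at 7.64, 8.72 and 12.2 there and Col2a1 at 50.7. Of the matrilins, adaptor proteins of the cartilage matrix, Matn3 was at 2.31 in SC4 and 116 in SC_9 and Matn4 at 2.18 in SC4 and 139 in SC_9, whereas Matn1 stayed below the limit for comparison with 1 UMI and 30 UMIs.

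Later and more general cartilage genes differed less evenly. Cnmd (chondromodulin, which inhibits vessel growth) was at 0.4703 in SC4 and 90.02 in SC_9 and Ucma, a matrix protein of immature cartilage, at 0.2802 in SC4 and 60.2 in SC_9. Comp, which is also made in tendon, was at 51.9 in SC4, 429.8 in SC_9, 177 in SC3, 20.1 in SC5 and 68.9 in SC10, so that d0 muscle held more of it than SC4. Col10a1, the marker of hypertrophic chondrocytes, stayed low, at 1.31 in SC_9 (108 UMIs) against 1 UMI in SC4. The 5 members within 2-fold were Epyc, Col27a1, Chad and the sulfation genes Papss2 and Chst11, with Chad at 5.95 in SC4, 5.505 in SC_9, 279.6 in SC3, 0.525 in SC5 and 0.316 in SC10. Of the 20 members, 19 were also at least 2-fold higher in SC_9 than in SC10, which has the same kind of barcodes, and 0 were at least 2-fold lower, as without the shared barcodes (19 and 0), against 7.95% and 2.95% of all compared genes. In SC5 their median ratio to SC4 was -1.64.

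**Figure D2:**
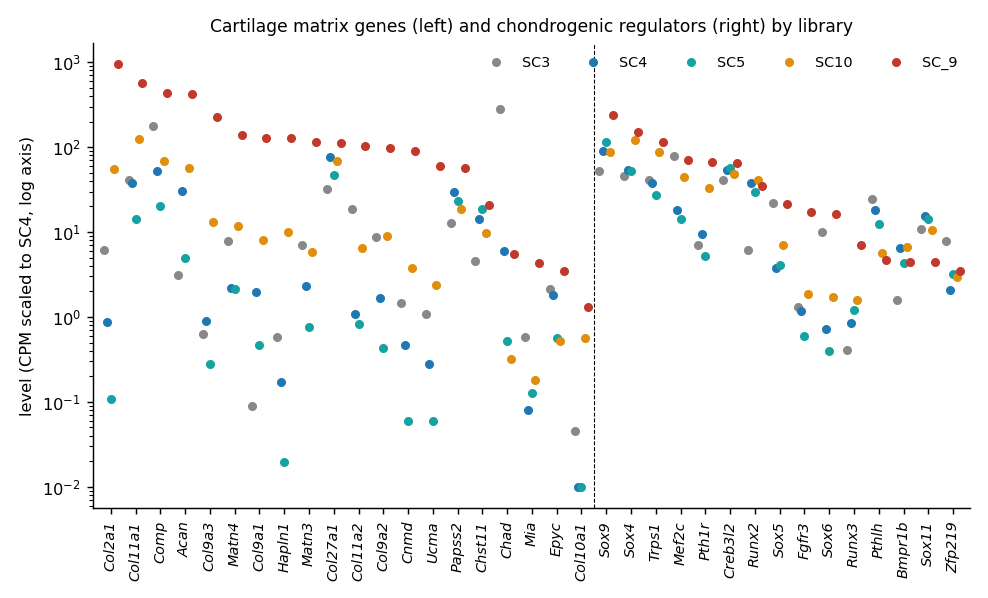
Levels (CPM scaled to SC4, log scale) of the 20 compared cartilage matrix genes and the 15 compared chondrogenic regulators in the 5 libraries, 1 point per library. SC_9 is the highest library for all cartilage matrix genes but Chad, whose level in SC3 is 280, while Sox9 spans only 52.4 to 237.

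Regulators of cartilage formation were mostly higher in SC_9, with smaller ratios than the matrix genes. Of 15 compared, 9 were at least 2-fold higher and 2 at least 2-fold lower, against 17.4% and 17.7% of all genes, with a median of 1.498. Sox9 (ENSMUSG00000000567, chromosome 11 from 112782224 to 112787760), the factor that starts chondrogenesis, lay at 90.6 in SC4, 237 in SC_9, 52.4 in SC3, 114 in SC5 and 88.5 in SC10, and the ratio of the pair was 2.61 (2.55 to 2.68). Its partner Sox6 differed more, from 0.7304 in SC4 to 16.2 in SC_9, while SC3 held 9.91. Sox5 was at 3.802 in SC4 and 21.2 in SC_9 and at 22.3 in SC3, so that for Sox5 the uninjured library and SC_9 were level and both lay above SC4. Fgfr3, a receptor that restrains growth plate chondrocytes, was at 1.16 in SC4 and 17.2 in SC_9, and Pth1r, the receptor for parathyroid hormone-related protein, at 9.39 in SC4 and 67.1 in SC_9. Pthlh, which encodes that ligand, was 3.89-fold lower in SC_9 (18.4 against 4.73). Sox11 was likewise lower, at 15.4 in SC4 and 4.43 in SC_9. Runx2, needed for both hypertrophy and bone, was level, at 37.4 in SC4 and 34.95 in SC_9.

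Hedgehog pathway genes, which control chondrocyte growth through Ihh, gave 7 of 10 compared members at least 2-fold higher and 0 lower, with a median of 1.55. The target gene Gli1 was at 0.3202 in SC4, 3.47 in SC_9, 7.48 in SC3, 0.445 in SC5 and 0.434 in SC10, highest in uninjured muscle and higher in SC_9 than in the other injured libraries. The receptor Ptch1, itself a target, was at 5.99 in SC4 and 19.2 in SC_9, and Gas1, a coreceptor, at 44.2 in SC4 and 298 in SC_9. The ligand Ihh had 6 UMIs in SC4 and 53 in SC_9, too few to be compared. When ratios were levelled within bins of transcript length, 4 members were past 2-fold.

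Counts of cells gave the same order. After 2000 UMIs had been drawn from each cell, leaving out 30 shallower cells of SC_9 and 225 of SC4, Col2a1 was found in 297 of 1438 SC_9 cells, 20.7% (18.6 to 22.8), and in 4 of 5364 SC4 cells, 0.0746% (0.0203 to 0.191). Without thinning the shares were 72.1% and 0.769%. Among SC_9 cells with at least 2 hematopoietic markers, 3 of 53 (5.66%) held a Col2a1 UMI at a median depth of 38650 UMIs before thinning, against 35367 in the other cells. The same cells held Postn, a fibroblast gene, in 90.6%, so they were not free of mesenchymal transcripts and give no background of free RNA. A share here therefore counts cells with a UMI and not cells that express the gene. In the SC_9 barcodes left out for holding under 1000 UMIs, Col2a1 lay at 757 (663 to 859.9), against 957 in the retained cells. Of the thinned SC_9 cells, 1141 held no Col2a1 UMI, 121 held 1, 74 held 2 to 9 and 102 held at least 10, up to 86. The top 10% of cells held 93.3% of all Col2a1 UMIs, against 22.5% for the type I collagen gene Col1a1.

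Acan was spread over more cells. It was found in 36.7% (34.2 to 39.3) of SC_9 cells and 4.38% (3.85 to 4.96) of SC4 cells. Sox9 was found in 37.97% (35.5 to 40.5) and 15.4% (14.4 to 16.4), and in 24.5% and 13.04% of the cells with hematopoietic markers, so no background can be set for these shares. Hapln1 was found in 10.7% (9.16 to 12.4) of SC_9 cells and in 0 of 5364 SC4 cells at this depth, a count of 0 that limits the share of cells with a UMI after thinning to 0.0559%. It does not limit the cells that express the gene, and without thinning 10 of 5589 SC4 cells (0.179%) held Hapln1.

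**Figure D3:**
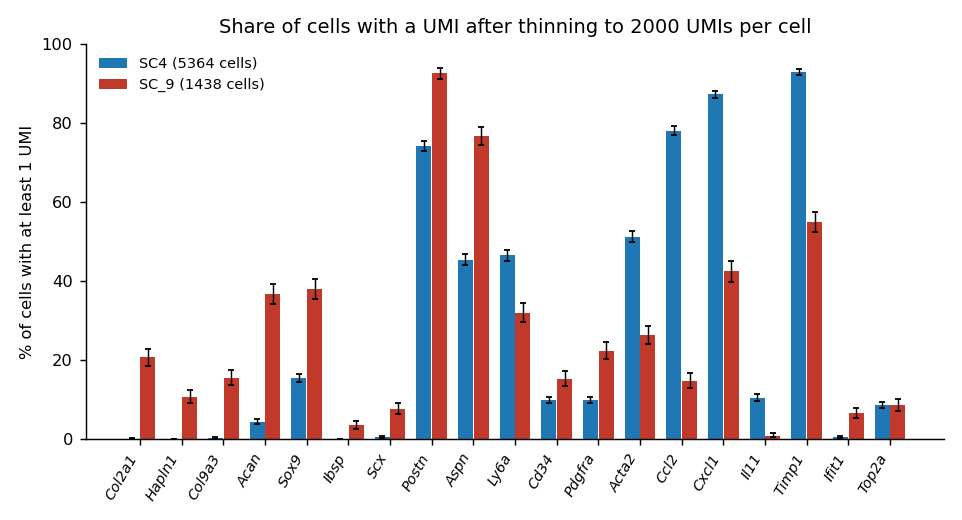
Percentage of cells with at least 1 UMI of each gene after thinning to 2000 UMIs per cell, in SC4 (5364 cells) and SC_9 (1438 cells), with exact 95% intervals. Col2a1 was found in 20.7% of SC_9 cells and 0.0746% of SC4 cells, and Ccl2 in 14.7% and 78.1%.

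Within SC_9, cells with at least 10 Col2a1 UMIs after thinning were set beside cells with none. All 102 cells with at least 10 held Acan, against 27.5% (24.9 to 30.2) of the 1141 cells without Col2a1. Hapln1 was found in 88.2% (80.4 to 93.8) and 1.84% (1.14 to 2.80) of the 2 sets, and Sox9 in 70.6% (60.7 to 79.2) and 32.95% (30.2 to 35.8). Progenitor genes were found more often in cells without Col2a1: Ly6a (Sca-1) was found in 6.86% (2.804 to 13.6) and 35.2% (32.5 to 38.1), and Pdgfra in 1.96% (0.238 to 6.904) and 25.2% (22.7 to 27.9). Postn, a fibrogenic gene, was found in about the same share of both, in 92.2% (85.1 to 96.6) and 92.3% (90.6 to 93.8). Shares this high leave little room for a difference. The level of Postn was 1874 in the 297 SC_9 cells with at least 1 Col2a1 UMI after thinning and 2740 in the 1141 cells without. The mitosis gene Top2a was found in 25.5% (17.4 to 35.1) and 6.398% (5.05 to 7.98), so that cells rich in Col2a1 included dividing ones. The median depth before thinning was 50497 UMIs in the first set and 34682 in the second, and the part of depth in these shares beyond thinning was not tested.

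Fibrous matrix genes were slightly higher in SC_9, most of them within 2-fold. Of 30 members, 7 were at least 2-fold higher and 0 lower, with a median of 0.702, against 17.4% and 17.7% of all genes. The count depended on the scale, with 14 higher among genes of a mean of at least 10 CPM and 19 without levelling. Col1a1, the main chain of type I collagen (ENSMUSG00000001506, chromosome 11 from 94936224 to 94953042), lay at 5316 in SC4, 14251 in SC_9, 2883 in SC3, 2910.3 in SC5 and 6973 in SC10, a ratio of 2.68. Postn (periostin), made by activated fibroblasts, was at 1069 in SC4, 2534 in SC_9, 172 in SC3, 400.1 in SC5 and 1818 in SC10. It was found in 92.6% (91.1 to 93.9) of thinned SC_9 cells and 74.2% (73.02 to 75.4) of SC4 cells. Col3a1 was at 4442 in SC4 and 8077 in SC_9, and Fn1 (fibronectin) at 1153.5 in SC4 and 2024 in SC_9, both within 2-fold. Genes induced early in wounds lay the other way, with Tnc (tenascin-C) at 445 in SC4 and 318 in SC_9 and Thbs1 (thrombospondin-1) at 344 in SC4 and 208 in SC_9, also within 2-fold. Levelled by transcript length, the median of the list was 0.24.

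Among small leucine-rich proteoglycans, which bind collagen fibrils, 5 of 12 were at least 2-fold higher and 1 lower. Aspn (asporin) was at 361 in SC4, 823 in SC_9, 353 in SC3, 151 in SC5 and 473 in SC10. Lum (lumican) was at 306 in SC4, 758 in SC_9, 1113 in SC3, 250.4 in SC5 and 255 in SC10, and Ogn (osteoglycin) at 181 in SC4 and 488 in SC_9. For Lum the uninjured library stood above both libraries of the pair, which was not so for Aspn. Dcn (decorin), 10184 in SC3, was 1169 in SC4 and 1826 in SC_9. Kera, a gene of tendon and cornea, was the one member lower in SC_9, at 6.003 in SC4 and 2.76 in SC_9. When every cell was weighted equally, 2 members were past 2-fold upwards.

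The enzymes and chaperones that build collagen were mostly within 2-fold. Of 25 members, 3 were at least 2-fold higher and 2 lower, against 17.4% and 17.7% of all genes, and 20 were within 2-fold. The median of -0.28 turned to 0.39 without levelling. With barcodes of another library left out, 2 were higher and 9 lower, with a median of -0.67, against 2366 and 2346 of all genes compared in that setting. The members past 2-fold upwards were P3h3, P3h4 and Crtap, which work on prolyl 3-hydroxylation and its complexes. Crtap was at 54.3 in SC4 and 122 in SC_9. The collagen chaperone Serpinh1 (Hsp47) was 2.38-fold lower, at 3199.9 in SC4 and 1346 in SC_9, and Pcolce, which speeds removal of the C-propeptide, was at 971 in SC4 and 378 in SC_9. Lox (lysyl oxidase) was at 588 in SC4 and 379 in SC_9, within 2-fold. Of 26 genes of the secretory pathway, 9 were at least 2-fold lower and 0 higher, led by Sdf2l1 and Manf, at 828 in SC4 and 265 in SC_9. Without levelling their median of -0.504 became 0.17, and 3 were lower when levelled by length. Against SC10, 0 of the secretory genes were at least 2-fold lower in SC_9 and 0 higher, against 2.95% and 7.95% of all compared genes.

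Several genes of early bone formation were higher in SC_9 and those of mature bone were near 0 in both libraries. Of 10 compared, 6 were at least 2-fold higher and 0 lower. The other 4 were within 2-fold, among them the early factor Runx2, given above as level. Ibsp (bone sialoprotein, ENSMUSG00000029306, chromosome 5 from 104299171 to 104311469) lay at 0.1501 in SC4, 49.4 in SC_9, 3.74 in SC3, 0.009898 in SC5 and 14.9 in SC10, and was found in 3.48% (2.59 to 4.56) of thinned SC_9 cells. Sp7 (osterix) was at 0.2501 in SC4 and 7.63 in SC_9 and Alpl (alkaline phosphatase) at 3.16 in SC4 and 53.1 in SC_9. The osteocalcin genes Bglap and Bglap2 had 11 and 3 UMIs in all of SC_9, and the osteocyte gene Dmp1 2. Ibsp is also made by maturing chondrocytes, and it was found in 13.7% (7.71 to 21.96) of SC_9 cells with at least 10 Col2a1 UMIs against 1.58% (0.938 to 2.48) of those with none.

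Of 15 tendon genes compared, 6 were at least 2-fold higher and 3 lower. Without levelling 9 were higher and 1 lower, and 8 and 1 when levelled by length. Among the 10 with a mean of at least 10 CPM they were 8 and 0. Scx (scleraxis), which marks tendon progenitors and is also active in early cartilage attachments, was at 2.33 in SC4, 28.7 in SC_9, 8.25 in SC3, 0.663 in SC5 and 25.02 in SC10, with SC_9 and SC10 together above the rest. Tnmd (tenomodulin) was at 38.6 in SC4 and 76.9 in SC_9. Among proteases and inhibitors, Mmp13, the collagenase of hypertrophic cartilage and bone, was 3.67-fold higher (17.4 against 63.9) and Timp2 5.15-fold. Timp1, an inhibitor induced by inflammation, was 6.23-fold lower, with levels of 2717 in SC4, 436 in SC_9, 80.2 in SC3, 2003 in SC5 and 1113 in SC10. Mmp10, another protease, had 185 UMIs in SC4 and 1 in SC_9, below the limit for comparison.

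Cell type markers aside, chemokines were the list with the lowest median ratio. Of 19 compared, 10 were at least 2-fold lower in SC_9 and 1 was higher, against 17.7% and 17.4% of all genes, with a median of -2.31. Levelled within bins of transcript length, the chemokine median was -1.41 and no longer the lowest, since that of the heat shock genes was -1.53. Against SC10, which has the same kind of barcodes, 5 chemokines were at least 2-fold lower in SC_9 and 4 higher, with a median of -0.399. The shares over all compared genes were 2.95% and 7.95%. Ccl2 (ENSMUSG00000035385, chromosome 11 from 82035571 to 82037453), which draws monocytes, lay at 2561 in SC4, 135 in SC_9, 807 in SC3, 2460.3 in SC5 and 409.8 in SC10. The libraries SC4 and SC5 were high and SC_9 and SC10 low, and the ratio of SC4 to SC_9 was 18.9 (18.6 to 19.3). It was found in 78.1% (76.9 to 79.2) of thinned SC4 cells and 14.7% (12.9 to 16.7) of SC_9 cells. In the cells with hematopoietic markers these shares were 65.2% and 18.9%, so no background can be set for them. Ccl7, a related monocyte chemokine, was at 1989 in SC4, 364 in SC_9, 582 in SC3, 1180.1 in SC5 and 519 in SC10. Ccl5 and Ccl9, which blood cells also make, were at 17.3 in SC4 and 0.932 in SC_9 and at 35.04 in SC4 and 2.94 in SC_9. The summed level of 7 hematopoietic markers was 25.1 in SC4 and 8.98 in SC_9, 4 of 5 compared being lower, and with cells that carry markers of other types left out 10 chemokines were lower.

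The neutrophil chemokines whose starts are printed above were all lower in SC_9. Cxcl1 was at 3748 in SC4, 537 in SC_9, 2356 in SC3, 2945 in SC5 and 712 in SC10, a 6.99-fold difference within the pair. Cxcl2 was at 629.6 in SC4, 40.8 in SC_9, 76.5 in SC3, 706 in SC5 and 88.3 in SC10, 15.4-fold lower in SC_9 than in SC4. Cxcl3 was at 48.1 in SC4, 1.25 in SC_9, 2.88 in SC3, 124 in SC5 and 5.01 in SC10, a 38.6-fold difference. For all 3 genes SC4 and SC5 stood above SC_9 and SC10. The same held for Cxcl5, another neutrophil chemokine, at 877 in SC4, 155 in SC_9, 15.5 in SC3, 1812 in SC5 and 257 in SC10. The share of cells with Cxcl1 was 87.3% (86.4 to 88.2) in SC4 and 42.4% (39.8 to 45.02) in SC_9. In the cells with hematopoietic markers it was 67.4% and 56.6%, so no background can be set for these shares. Not every chemokine differed: Cxcl12, the homeostatic ligand of Cxcr4, was level at 288 in SC4 and 287 in SC_9, and Cxcl9, an interferon target, was the member higher in SC_9, at 2.64 in SC4 and 17.6 in SC_9.

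Cytokine genes of the IL-6 and IL-1 families split, with 5 of 20 at least 2-fold higher and 6 lower. Il11, an IL-6 family cytokine, was at 103 in SC4, 6.05 in SC_9, 5.81 in SC3, 222 in SC5 and 50.7 in SC10, and was found in 10.4% (9.63 to 11.3) of SC4 cells against 0.834% (0.432 to 1.45) of SC_9 cells. Il1rl1, the receptor for IL-33, was at 261 in SC4 and 21.6 in SC_9, and Il33 itself at 82.6 in SC4 and 31.1 in SC_9. Lif was at 54.9 in SC4 and 17.5 in SC_9. Socs3, the feedback inhibitor of this signalling, was higher in SC_9, at 80.2 in SC4, 441 in SC_9, 253 in SC3, 88.2 in SC5 and 231 in SC10. Inhba, the activin A subunit, was 5.47-fold lower, at 538 in SC4 and 98.4 in SC_9.

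Most glycolytic genes were lower in SC_9. Of 18 compared, 11 were at least 2-fold lower and 0 higher, with a median of -1.402 (-0.73 without levelling and -1.16 when levelled by length). Gapdh, of the middle of the pathway, was at 2984 in SC4, 709.5 in SC_9, 478 in SC3, 3231 in SC5 and 1439 in SC10. Pkm, its last kinase, was at 1316 in SC4, 309.9 in SC_9, 223 in SC3, 1563 in SC5 and 662 in SC10. Ldha, which makes lactate, was at 1231 in SC4, 325 in SC_9, 309.8 in SC3, 1357 in SC5 and 662 in SC10. SC4 and SC5 were high and SC_9 and SC3 low for these 3 genes, with SC10 between. The glucose transporter Slc2a1 was 4.22-fold lower in SC_9. Within SC_9 Ldha lay at 616 in the 297 cells with Col2a1 and at 234 in the rest.

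Genes induced by low oxygen gave 9 of 20 at least 2-fold lower and 2 higher. Against SC10, 1 was at least 2-fold lower in SC_9 and 0 were higher, against 2.95% and 7.95% of all compared genes. Ndrg1, a stress response gene, was at 206 in SC4, 44.2 in SC_9, 127 in SC3, 253 in SC5 and 50.6 in SC10. Ddit4, an inhibitor of mTOR signalling, was at 123 in SC4 and 25.4 in SC_9. Vegfa, the vessel growth factor, was at 17.1 in SC4 and 17.5 in SC_9, and Car9, a target of Hif1a, was higher in SC_9 at a low level, 0.4202 in SC4 and 1.22 in SC_9. The metallothionein genes Mt1 and Mt2, induced by metals and stress, were 4.05-fold and 11.5-fold lower, with Mt2 at 2734 in SC4, 237 in SC_9, 4838 in SC3, 3664 in SC5 and 281 in SC10. Both ferritin genes were also past 2-fold, with Fth1 at 3587 in SC4 and 1619.6 in SC_9 and Ftl1 at 3857 in SC4 and 1061 in SC_9. Of 17 genes of iron handling and the antioxidant response 8 were lower and 2 higher, one of the latter being Slc40a1 (ferroportin, the iron exporter), at 1.42 in SC4 and 19.01 in SC_9. Against SC10, 1 of these genes was at least 2-fold lower in SC_9 and 1 higher, against the same 2.95% and 7.95% of all compared genes.

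Division genes were lower on average in SC_9, but the share of dividing cells depended on the limit used. Of 43 S-phase genes 16 were at least 2-fold lower and 0 higher, and of 52 G2/M genes 14 were lower and 2 higher, Mki67 and Kif20b. Without levelling, 3 S-phase genes were lower and 2 higher, and the G2/M median of -0.28 turned to 0.39. Mcm5, part of the replicative helicase, was at 37.2 in SC4 and 11.1 in SC_9, Birc5 (survivin) at 175 in SC4 and 49.5 in SC_9, and Mki67 at 18.2 in SC4 and 38.99 in SC_9. Cells with at least 0.5% of their UMIs on these genes made up 26.6% (25.5 to 27.8) of SC4 and 15.7% (13.9 to 17.7) of SC_9. With a limit of 1% they made up 1.81% (1.47 to 2.19) and 7.77% (6.45 to 9.25), so the order reversed. Near the lower limit, between 0.4% and 0.6%, lay 966 SC4 cells and 47 SC_9 cells. The limits were chosen after the distributions had been seen. Top2a was found in 8.67% (7.93 to 9.45) of thinned SC4 cells and 8.48% (7.095 to 10.05) of thinned SC_9 cells. Neither these shares nor the limits are levelled for the median gene. On the levelled scale Top2a was at 66.2 in SC4 and 54.8 in SC_9, within 2-fold.

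Cartilage, chemokine and collagen genes differed in the same direction in cells below the 0.5% limit. In those cells Col2a1 was at 0.392 in SC4 and 696 in SC_9, and in the cells above it at 1.81 and 2028. Ccl2 was at 2747 and 135 in cells below the limit. Col1a1 was at 5837 and 15047.

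Of 15 surface genes of progenitors, 5 were at least 2-fold higher and 2 lower, and without levelling 10 were higher and 0 lower. Ly6a was at 427 in SC4, 342 in SC_9, 769.6 in SC3, 769 in SC5 and 233 in SC10, within 2-fold in the pair. It was found in 46.5% (45.2 to 47.8) of thinned SC4 cells and 31.99% (29.6 to 34.5) of SC_9 cells. Cd34 was at 47.3 in SC4, 62.6 in SC_9, 541 in SC3, 55.9 in SC5 and 29.95 in SC10. Pdgfra, the receptor that marks fibro-adipogenic progenitors, was at 46.7 in SC4, 82.3 in SC_9, 124 in SC3, 68.3 in SC5 and 53.3 in SC10. Uninjured muscle held the most Cd34 and Pdgfra, and for Ly6a SC3 and SC5 were level and highest. Clec3b and Dpp4, genes of an adventitial progenitor state, were 7.72-fold and 10.7-fold higher in SC_9 than in SC4, with Clec3b at 23.9 in SC4, 185 in SC_9, 1254 in SC3, 23.4 in SC5 and 6.995 in SC10. Thy1 was 3.09-fold lower.

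Contractile genes were lower in SC_9, with 8 of 20 at least 2-fold lower and 2 higher, but without levelling 2 were lower and 3 higher, and the median of -0.57 became 0.103. With barcodes of other libraries left out, 4 were lower, and in SC5 against SC4 6 of 19 were. Acta2 (smooth muscle actin) was at 774 in SC4, 304 in SC_9, 1895 in SC3, 258 in SC5 and 860.5 in SC10 and was found in 51.2% (49.9 to 52.6) of SC4 cells and 26.4% (24.1 to 28.7) of SC_9 cells. Tagln2 was 3.84-fold lower. Myh11, of mature smooth muscle, was higher, at 4.78 in SC4 and 17.3 in SC_9.

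In the growth factor pathways more genes were at least 2-fold higher in SC_9 than at least 2-fold lower. Of 27 Wnt pathway genes 15 were at least 2-fold higher and 0 lower, with a median of 1.08. Several of these encode secreted inhibitors. Frzb, which is high in joint and growth plate cartilage, was at 0.6704 in SC4 and 19.9 in SC_9. Sfrp1 was at 165 in SC4, 673 in SC_9, 11.0 in SC3, 65.9 in SC5 and 373 in SC10, and Sfrp2 at 329 in SC4 and 896 in SC_9. Sfrp4 was at 25.1 in SC4, 147 in SC_9, 168 in SC3, 12.3 in SC5 and 3.103 in SC10, so that SC_9 and the uninjured library were high in it. The receptor gene Fzd9 was at 0.4102 in SC4 and 15.8 in SC_9 and the target Axin2 at 0.7804 in SC4 and 2.504 in SC_9. Of 33 genes of the FGF, IGF, PDGF and CCN families 17 were higher and 4 lower. Igf1 was at 304 in SC4, 895 in SC_9, 243 in SC3, 164 in SC5 and 195 in SC10, with SC_9 above the other 4 libraries. The binding proteins Igfbp5 and Igfbp7 were 7.196-fold and 8.46-fold higher. Fgfr2 was at 3.62 in SC4 and 22.2 in SC_9 and Fgfrl1, a receptor without a kinase, at 10.4 in SC4 and 78.3 in SC_9.

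Of 37 BMP and TGF-beta genes 14 were at least 2-fold higher and 1, Inhba, was lower. Gdf5, of joint-forming cells, had 39 UMIs in SC4 and 325 in SC_9, a level of 3.93 there. Tgfb1 was at 3.62 in SC4, 30.9 in SC_9, 5.32 in SC3, 3.17 in SC5 and 41.7 in SC10, high in SC_9 and SC10 and low in the other 3 libraries. Bmp2 was at 16.4 in SC4 and 8.49 in SC_9 and Bmp4 at 5.11 in SC4 and 10.6 in SC_9. Id1, a target of BMP signalling, was at 13.7 in SC4 and 29.2 in SC_9, and Id3 at 302 in SC4 and 339 in SC_9.

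Interferon-stimulated genes gave 12 of 22 at least 2-fold higher and 0 lower, with a median of 1.53. The other 10 were within 2-fold, and 6 of the 22 had a negative log2 ratio, down to -0.98. The summed level of the 23 genes listed was level in the pair, at 934 in SC4 and 908 in SC_9. In SC5 against SC4, 10 of 21 were higher and 0 lower. Ifit1 was at 2.66 in SC4, 34.7 in SC_9, 25.1 in SC3, 9.51 in SC5 and 8.04 in SC10 and was found in 6.54% (5.31 to 7.94) of thinned SC_9 cells and 0.541% (0.362 to 0.776) of SC4 cells, and in 11.3% of the SC_9 cells with hematopoietic markers, so no background can be set for this share. Irf1, a transcription factor of the response, was at 12.2 in SC4, 62.04 in SC_9, 169 in SC3, 6.99 in SC5 and 33.5 in SC10. Isg15, a ubiquitin-like protein, was at 13.2 in SC4, 40.5 in SC_9, 83.8 in SC3, 49.2 in SC5 and 17.8 in SC10, and SC3 stood above SC_9 for both. Of 11 genes of the complement list, which also holds C1qtnf3, 8 were higher and 0 lower. With every cell weighted equally 4 of the 11 were higher. C3, the central component, was at 56.5 in SC4, 166 in SC_9, 294 in SC3, 68.4 in SC5 and 25.5 in SC10. C4b was at 8.52 in SC4, 56.2 in SC_9, 13.5 in SC3, 12.5 in SC5 and 7.52 in SC10. C1qtnf3, a C1q-like secreted protein, was at 107 in SC4, 597 in SC_9, 5.45 in SC3, 13.1 in SC5 and 145 in SC10. SC_9 was the highest library for C4b and C1qtnf3, and SC3 for C3.

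Immediate early genes, which respond within minutes to stimuli that include tissue digestion, gave 14 of 22 at least 2-fold higher and 2 lower. Fos was at 1035 in SC4, 2339 in SC_9, 3839 in SC3, 400.4 in SC5 and 1429.9 in SC10. Its partner Jun was at 319 in SC4, 1822 in SC_9, 795 in SC3, 215 in SC5 and 1214 in SC10. Fosl1, a partner of Jun in AP-1, was 10.7-fold lower in SC_9, at 119.7 in SC4 and 11.2 in SC_9. Klf2 and Jund were highest in SC_9 and SC10, and SC3 also lay above SC4 and SC5. Klf2 was at 48.1 in SC4, 885 in SC_9, 247 in SC3, 37.2 in SC5 and 391.7 in SC10. Jund lay at 107 in SC4, 933 in SC_9, 278 in SC3, 92.98 in SC5 and 857 in SC10. Heat shock genes gave 9 of 12 lower and 0 higher, with Hspa1a at 575 in SC4, 31.6 in SC_9, 3796 in SC3, 458 in SC5 and 23.5 in SC10. Against SC10, 0 heat shock genes were at least 2-fold lower in SC_9 and 1 was higher, against 2.95% and 7.95% of all compared genes. What part the handling of the tissue had in these 2 groups was not tested.

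Hyaluronan and lubrication genes were level or lower in SC_9, apart from the link protein gene Hapln1 described above. Of 11 compared 3 were at least 2-fold lower, namely Tnfaip6, Cd44 and Prg4 (lubricin), the last at 266 in SC4, 42.9 in SC_9, 109 in SC3, 237 in SC5 and 199 in SC10. Has1, which makes hyaluronan, was at 256 in SC4 and 179 in SC_9. Of 12 Notch genes 4 were higher and 0 lower, with the target Hes1 at 21.4 in SC4, 49.4 in SC_9, 236 in SC3, 16.2 in SC5 and 36.5 in SC10. Of 10 adipogenic genes 6 were higher and 2 lower. The early factor Cebpb was at 22.5 in SC4, 239.9 in SC_9, 181 in SC3, 34.04 in SC5 and 283 in SC10. Cebpd was at 24.5 in SC4, 416 in SC_9, 197 in SC3, 19.6 in SC5 and 281 in SC10. Both were highest in SC_9 and SC10, and SC3 also lay above SC4 and SC5. Plin1 and Adipoq of mature fat cells had at most 6 UMIs in either library of the pair.

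Genes with short transcripts were lower in SC_9 as a class, and this bears on ribosomal and respiratory genes. The median ratio of SC_9 to SC4 was -0.81 on the log2 scale among the shortest 20% of transcripts and 0.501 among the longest 20%. For SC10 against SC4 it was -0.56 and 0.38, and for SC5 against SC4 -0.030 and 0.025. For SC3, which shares barcodes with SC4, the ratio to SC4 was -0.53 and 0.38, so the trend was not limited to SC_9 and SC10. Of 80 ribosomal protein genes 67 were at least 2-fold lower in SC_9 and 0 higher, and of 88 nuclear genes of oxidative phosphorylation 72 were lower and 1 higher. Against SC10, 2 ribosomal and 2 respiratory genes were at least 2-fold lower in SC_9 and 0 of either were higher. The shares over all compared genes were 2.95% lower and 7.95% higher. The median transcript lengths of the ribosomal and respiratory genes were 1076.5 and 1170.5 bases against 3392 for all compared genes. Levelled within bins of length, 19 ribosomal and 15 respiratory genes were lower, against 1357 of all 12179 genes. Without levelling 22 and 9 were, against 517 of all 12179 genes. Of 13 genes of the mitochondrial genome 8 were at least 2-fold higher and 0 lower, with mt-Nd4 at 943 in SC4 and 2424 in SC_9. The median cartilage gene is 3382.5 bases long, and levelled by length 16 cartilage genes were higher.

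**Figure D4:**
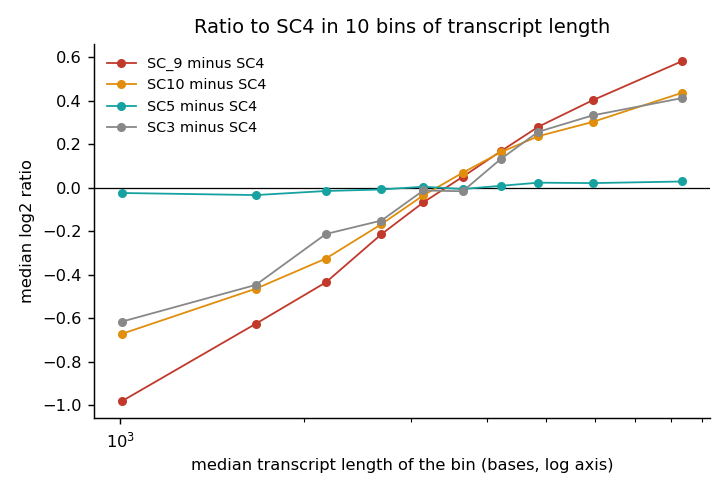
Median log2 ratio to SC4 of the compared genes in 10 bins of transcript length (x axis, bases, log scale), for SC_9, SC10, SC5 and SC3. The ratio of SC_9 rises from -0.98 in the shortest bin to 0.58 in the longest. That of SC3 rises from -0.61 to 0.41, and that of SC5 stays within -0.03 and 0.03.

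Markers of other cell types were low in both libraries. The summed level of 7 hematopoietic markers was 25.1 in SC4 and 8.98 in SC_9, with Ptprc (CD45) at 0.1901 in SC4 and 0.145 in SC_9. That of 5 endothelial markers was 3.64 and 6.01, and that of 5 myogenic markers 0.4703 and 0.206, with Pax7 and Myf5 at 0 UMIs in both. The erythroid markers summed to 40.1 and 1.79, 4 of 4 compared being lower. The 4 adipocyte, 4 Schwann cell and 5 myofiber markers summed to at most 6.05 in either library. The mesenchymal marker Prrx1 (the gene whose limb enhancer drives the Cre) was at 124 in SC4 and 161 in SC_9, and the FAP/MP (fibro-adipogenic and mesenchymal progenitor) markers were level, with a summed level of 933 in SC4 and 935 in SC_9. The 6 pericyte markers summed to 72.96 and 150.2, 4 being at least 2-fold higher and 1 lower, with Cspg4 at 3.202 in SC4 and 28.9 in SC_9, and the 6 chondrocyte markers to 125 and 1768. The 5 osteoblast markers summed to 0.7404 and 57.2, and the 3 tenocyte markers to 46.9 and 108. Leaving out cells with at least 2 hematopoietic, endothelial or myogenic markers, 2102 genes were higher and 2129 lower, and 15 cartilage genes were higher.

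**Figure D5:**
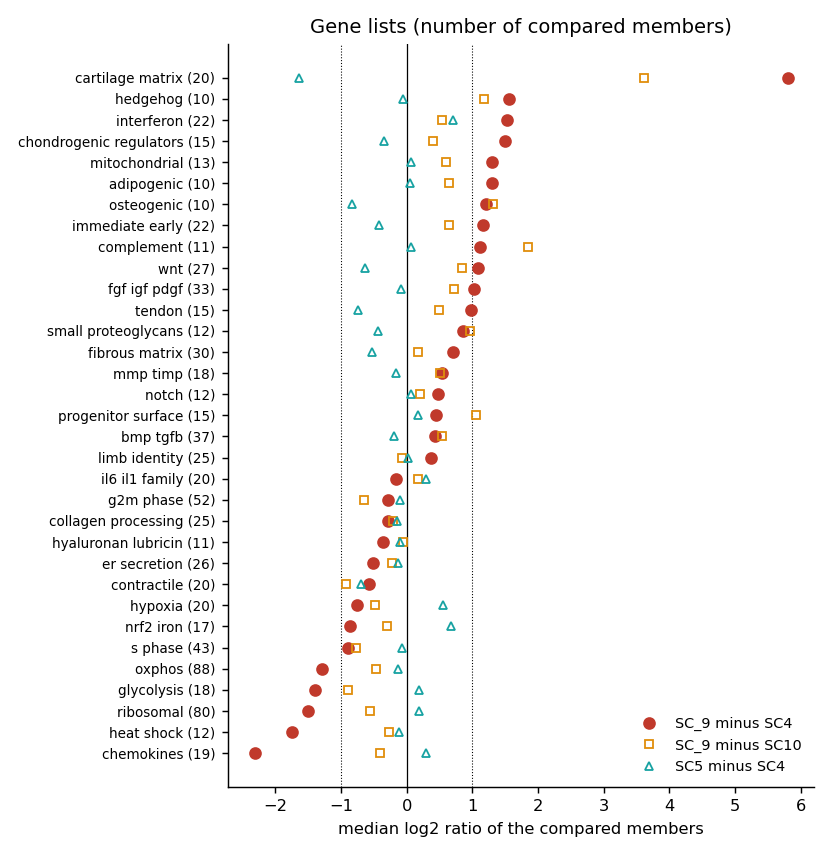
Median log2 ratio of the compared members of 33 gene lists (number of members in brackets) for SC_9 against SC4 (filled circles), SC_9 against SC10 (squares) and SC5 against SC4 (triangles), which share libraries with one another; dotted lines mark 2-fold. Cartilage matrix lies at 5.80, 3.62 and -1.64, and chemokines lie at -2.31, -0.40 and 0.29.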

How the data were processed

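UMI counts per gene and cell were deposited by the authors as 1 filtered 10x matrix per library. The sources name Chromium 3′ v2 chemistry, Cell Ranger (3.1.0 in the matrix header), mm10 and Seurat 3.1.2. Samples were grouped by their deposited labels, and SC_9 was read as d5 post-fracture with the conflict stated. The gene groups, the members and the named genes were chosen with earlier results of these data known.

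Cells with 350 to 8000 genes, under 20% mitochondrial UMIs and at least 1000 UMIs were kept, and their UMIs were summed per library (99943787 in SC4, 51864740 in SC_9). Sums became CPM and were divided so that the median of the genes with a mean of at least 1 CPM was level with SC4. Ratios carry exact (Clopper-Pearson) 95% counting intervals and levels exact Poisson ones, which cover counting error only. A count of 0 was set to 3 for a ratio. Shares are of cells thinned to 2000 UMIs, without levelling of the median gene, with exact binomial intervals. With 1 library a side, no test was run, and called means at least 2-fold. Named were the 15 highest and 15 lowest ratios at a mean of at least 20 CPM, the most abundant and most different members of each list, and the cell type markers. One of these genes is not reported here. Other genes were added after their values were seen. The S-phase and G2/M limit was set after seeing the data, as were alternatives that levelled by transcript length (GENCODE), kept cells with over 8000 genes, or left out shared barcodes under 10 times deeper. Doublets were kept, and leaving out the highest Scrublet scores (scanpy 1.11.5) was an alternative. The procedure was tested on simulated data. Promoters are from RefSeq (GRCm38.p6), which held 15 of 22 chemokine and 19 of 24 cartilage matrix genes. Python 3.11.15, numpy 2.4.6, scipy 1.17.1 and pandas 2.3.3 were used.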

Additional observations from a re-analysis of the deposited data

Results flagged for a closer look

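The pair SC_9 against SC4 was set beside SC10 against SC5, which shares no library with it and whose libraries also differ in barcodes. By the deposited labels SC10 against SC5 compares polytrauma with fracture at d5. If SC5 is d3 post-polytrauma, it compares d5 with d3 after polytrauma. Among gene lists whose median log2 ratio was at least 0.5 in size in both pairs, 3 had medians of opposite sign. The contractile list had a median log2 ratio of -0.57 in the first pair and 0.82 in the second. The interferon list had 1.53 and -0.74, and the complement list 1.12 and -0.73. Some lists with a smaller median in one pair also differed in sign, such as the progenitor surface list with 0.45 and -1.11. The difference between the pairs was not tested, since each has 1 library a side.

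Cartilage transcripts were also present in the SC_9 barcodes that the limits on cells left out. Over these 533 barcodes Col2a1 lay at 1539, Acan at 596 and Hapln1 at 178, against 0.8705, 30.8 and 0.1701 in the retained cells of SC4. In the 640 barcodes left out of SC4, Col2a1 and Hapln1 had 0 UMIs and Acan lay at 32.6. These SC_9 values rest mostly on the 30 barcodes with over 8000 genes. Those held 3087244 of the 4219405 UMIs and 8685 of the 10352 Col2a1 UMIs. The same 30 barcodes held Col2a1 at 1765 and the 213 with at least 20% mitochondrial UMIs at 959.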

How the results depend on the processing

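Which library stands for the later time decided the comparison: with SC5 in place of SC_9, 293 genes were at least 2-fold higher and 186 lower than in SC4. No member was then past 2-fold upwards in the cartilage matrix, regulator, fibrous matrix, proteoglycan, collagen processing and progenitor lists, and 0 were past it downwards in the S-phase, G2/M, glycolysis and low oxygen lists, against 2 chemokines and 6 of 19 contractile genes. Of 21 interferon genes 10 were then higher. Of 153 named genes compared, 87 that differed 2-fold between SC_9 and SC4 had the opposite sign there. Among cartilage genes the SC5 ratio was -3.11 for Hapln1, -3.01 for Col2a1, -2.99 for Cnmd, -2.64 for Acan, -2.25 for Ucma, -2.11 for Col9a1, -1.99 for Col9a2, -1.71 for Col9a3, -1.61 for Matn3, -1.43 for Col11a1, -1.38 for Comp, -0.95 for Fgfr3, -0.89 for Sox6, -0.84 for Pth1r, -0.39 for Col11a2, -0.296 for Gas1, -0.12 for Ptch1, -0.044 for Matn4 and -0.024 for Col10a1. Among matrix, bone and tendon genes it was -3.93 for Ibsp, -1.82 for Scx, -1.67 for Sp7, -1.43 for Postn, -1.29 for Mmp13, -1.26 for Aspn, -1.25 for Alpl, -0.88 for Col1a1, -0.43 for Ogn, -0.299 for Lum, -0.19 for Timp2 and -0.12 for Crtap. Among chemokine and cytokine genes it was 0.16 for Cxcl2, 0.65 for Ccl9, 0.69 for Ccl5, 0.69 for Il1rl1, 0.95 for Il33, 1.04 for Cxcl5, 1.097 for Il11 and 1.36 for Cxcl3. Among glycolytic, low oxygen and iron genes it was -0.14 for Slc40a1, 0.11 for Gapdh, 0.13 for Ldha, 0.24 for Pkm, 0.29 for Ndrg1, 0.41 for Mt2, 0.48 for Ftl1, 0.499 for Ddit4, 0.52 for Mt1, 0.54 for Slc2a1 and 0.77 for Fth1. Among growth factor pathway genes it was -1.402 for Gdf5, -1.33 for Sfrp1, -1.04 for Sfrp4, -0.92 for Fzd9, -0.897 for Igf1, -0.67 for Axin2, -0.57 for Fgfrl1, -0.202 for Tgfb1, -0.13 for Bmp4, -0.12 for Id1, -0.11 for Igfbp7 and 0.16 for Inhba. Among the rest it was -3.83 for Gzmd, -3.04 for C1qtnf3, -2.89 for Gzmc, -2.54 for Gzme, -2.08 for Myh11, -1.38 for Fos, -1.16 for Scrg1, -0.81 for Irf1, -0.58 for Jun, -0.54 for Dbp, -0.51 for Hoxa11, -0.44 for Prrx2, -0.41 for Hes1, -0.38 for Klf2, -0.33 for Cebpd, -0.302 for Twist1, -0.21 for Jund, -0.072 for Per3, -0.041 for Clec3b, 0.31 for Ass1, 0.53 for Thy1, 0.56 for Arntl, 0.67 for Lmcd1, 0.93 for Fosl1 and 1.28 for Meox1.

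Without levelling 4620 genes were higher and 517 lower, and 19 fibrous matrix, 10 proteoglycan, 8 collagen processing and 10 progenitor genes were higher and 2 contractile, 3 S-phase, 4 G2/M and 5 low oxygen genes lower. With genes of a mean of at least 10 CPM, which moves the median gene, the counts were 1235 and 1159, with 14 fibrous matrix, 5 collagen processing and 3 progenitor genes higher and 10 S-phase and 7 G2/M genes lower. Without a filter on genes they were 3635 and 3767. Levelled within bins of transcript length, 1357 genes were lower. With every cell weighted equally 2 proteoglycan genes were higher. Leaving out barcodes found in another library kept 599 SC_9 cells, with 9 collagen processing, 4 contractile, 26 S-phase and 23 G2/M genes lower. Leaving out dividing cells gave 26 S-phase and 34 G2/M genes lower and turned the log2 ratio of Mki67 to -0.44.

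Differences in shares of cells kept their sign. Thinned to 5000 UMIs they were 31.7 percentage points for Col2a1, 43.6 for Acan, 27.1 for Sox9, -23.3 for Ly6a, 5.31 for Postn, -67.8 for Ccl2, -39.3 for Cxcl1 and -16.9 for Il11. Without thinning they were 71.3 for Col2a1, 23.9 for Hapln1, 58.2 for Acan, 10.5 for Ibsp, 4.61 for Postn, -52.1 for Ccl2, -18.1 for Cxcl1 and -24.2 for Il11. With barcodes of another library left out they were 16.9 for Col2a1, 5.56 for Hapln1, 29.1 for Acan, 2.44 for Ibsp, 12.5 for Postn, -67.0 for Ccl2 and -56.3 for Cxcl1. The difference in dividing cells, -10.9 points, turned to 5.96 at the limit of 1%, and the log2 ratio in cells below it was -2.72 for Cxcl1, -4.20 for Ccl2, -1.996 for Ldha and 1.45 for Col1a1. The causes of these changes were not tested.

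No paired analysis was possible because each condition has 1 library. No library has a replicate, so biological spread is unknown. The deposited label of SC_9, its barcodes and its depth cannot be told apart from time. Leaving out possible doublets, cells with markers of other types or the lower limit on UMIs, and keeping cells with over 8000 genes, moved no count over all genes or of the 12 main lists by over 1.5 times.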

Other observations

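Some groups of genes were chosen after their values had been seen. A list of granzymes, proteases named for the granules of killer cells, and of serpins gave 4 of 5 compared members at least 2-fold higher in SC_9. Gzme lay at 6.46 in SC4, 89.4 in SC_9, 0 in SC3, 1.12 in SC5 and 18.8 in SC10, Gzmd at 0.981 in SC4, 26.3 in SC_9, 0 in SC3, 0.0693 in SC5 and 6.61 in SC10 and Gzmc at 4.52 in SC4, 25.1 in SC_9, 0 in SC3, 0.614 in SC5 and 5.52 in SC10, so that uninjured muscle had no UMI of the 3. Gzme was found in 11.2% (9.61 to 12.9) of thinned SC_9 cells and 1.398% (1.101 to 1.75) of SC4 cells, and in 20.8% of the 53 SC_9 cells with at least 2 hematopoietic markers, so no order of these shares is read. Perforin (Prf1), the partner of granzymes in killer cells, had 1 UMI in SC4 and 0 in SC_9, and Gzma had 12 and 0. Gzmc, Gzmd and Gzme lie together in the genome and are similar in sequence, so counts may be shared among them.

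Some clock-controlled genes also differed. Of 16 circadian genes 6 were at least 2-fold higher and 2 lower in SC_9, against 17.4% and 17.7% of all genes. Against SC10, 2 of them were at least 2-fold higher in SC_9 and 0 lower, against 7.95% and 2.95% of all compared genes. Dbp, driven directly by the clock, lay at 2.35 in SC4, 39.3 in SC_9, 8.92 in SC3, 1.62 in SC5 and 20.3 in SC10 and Per3 at 3.36 in SC4, 17.8 in SC_9, 9.78 in SC3, 3.22 in SC5 and 9.49 in SC10. Arntl (Bmal1), part of the clock itself, and Ciart were lower, with Arntl at 12.6 in SC4, 4.52 in SC_9, 24.9 in SC3, 18.7 in SC5 and 8.11 in SC10. The hour at which tissue was taken is not given in the sources used here, and its part was not tested.

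Transcription factors that mark limb position were partly higher in SC_9. Of 25 compared 10 were at least 2-fold higher and 3 lower. Against SC10, 1 of them was at least 2-fold higher in SC_9 and 1 lower, with a median of -0.077. The shares over all compared genes were 7.95% and 2.95%. Pitx1, which specifies the hindlimb, was at 2.44 in SC4, 12.6 in SC_9, 1.98 in SC3, 3.504 in SC5 and 9.53 in SC10, Shox2 at 10.3 in SC4, 59.6 in SC_9, 21.4 in SC3, 14.2 in SC5 and 38.9 in SC10 and Hoxa11 at 1.88 in SC4, 9.03 in SC_9, 2.03 in SC3, 1.33 in SC5 and 5.43 in SC10. Prrx2 was at 17.9 in SC4, 81.4 in SC_9, 10.2 in SC3, 13.2 in SC5 and 105 in SC10 and Twist1 at 14.9 in SC4, 76.3 in SC_9, 20.6 in SC3, 12.2 in SC5 and 59.2 in SC10. Pitx1, Shox2, Hoxa11, Prrx2 and Twist1 were all higher in SC_9 and SC10 than in the other libraries. Meox1 was lower in SC_9, at 3.92 in SC4, 1.25 in SC_9, 52.0 in SC3, 9.58 in SC5 and 12.3 in SC10. Of 32 compared genes whose symbols begin with Hist1h to Hist4h, 14 were higher and 2 lower, among them Hist1h2ae at 2.12 in SC4, 24.1 in SC_9, 0.0451 in SC3, 4.87 in SC5 and 15.7 in SC10 and Hist1h4i at 29.3 in SC4, 9.41 in SC_9, 1.08 in SC3, 29.1 in SC5 and 16.2 in SC10.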
